A study of Homo sapiens with 6 samples.

Results

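In all, 10 genes of the Notch pathway were examined in DMS53 cells with and without enforced OC2 expression: the receptors NOTCH1, NOTCH2 and NOTCH3, the ligands DLL1, DLL4, JAG1 and JAG2, and the fringe enzymes LFNG, MFNG and RFNG. They were chosen by name, as the 10 rows with these symbols among the 62696 genes counted in each library, and all 10 had enough counts to be tested. DMS53 is an established NE SCLC cell line. The control group consisted of 3 libraries of cells transduced with the empty lentiviral vector pLenti-C-mGFP-P2A-Puro. The OC2-OE group consisted of 3 libraries of cells transduced with a lentiviral ORF clone of human ONECUT2, tagged with mGFP for constitutive expression. ONECUT2 is the gene that encodes OC2. Both groups were selected with puromycin and therefore carried a lentiviral vector, and the sources do not state a clone, the promoter of the construct or the time after transduction. The study presented its libraries as independent RNA-Seq experiments, but the sample labels do not name separate transductions, so the p-values measure the spread between these libraries, which may be partly technical.

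Notch signaling passes between neighbouring cells. Delta-like and Jagged ligands on one cell bind Notch receptors on the next, proteases release the intracellular part of the receptor, and that fragment joins RBPJ on DNA to switch on genes such as HES1. Fringe enzymes extend O-fucose on the receptor's EGF-like repeats in the Golgi, which changes how well Delta-like and Jagged ligands activate it. In SCLC, NE cells are known for expressing Delta-like ligands, and active Notch is associated with loss of NE features.

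A total of 16533284 to 19099337 read pairs were counted per library. ONECUT2 had 394 to 465 counts in the control libraries and 68853 to 74031 in the OC2-OE libraries, which matched the labels. Of 17307 genes tested with edgeR's quasi-likelihood test, 9776 (56.5%) had an adjusted p under 0.001, the threshold for a change used throughout, with 4810 (27.8%) higher and 4966 (28.7%) lower in OC2-OE. In 12673 genes (73.2%) the libraries of the groups did not overlap. The median log2 fold change over all tested genes was 0.01. The biological coefficient of variation between libraries of the same group was 2.2%.

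Of the 10 Notch genes, 7 (70.0%) changed, with NOTCH2 and NOTCH3 higher and DLL1, DLL4, JAG1, JAG2 and LFNG lower in OC2-OE cells. In 8 of the 10 the libraries of the groups did not overlap. The median log2 fold change of the 10 genes was -0.26, from -1.63 for LFNG to 1.54 for NOTCH3. The shares of the 10 genes that changed or did not overlap stood near those over all genes tested, so the counts alone do not set the family apart, and the size and the direction of each gene's change are described by role. NOTCH2, NOTCH3, DLL4 and LFNG changed by at least 1 on the log2 scale, which 17.3% of all tested genes did. The data are from bulk RNA, in which fewer cells of a type and less RNA per cell cannot be told apart.

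**Figure D1:**
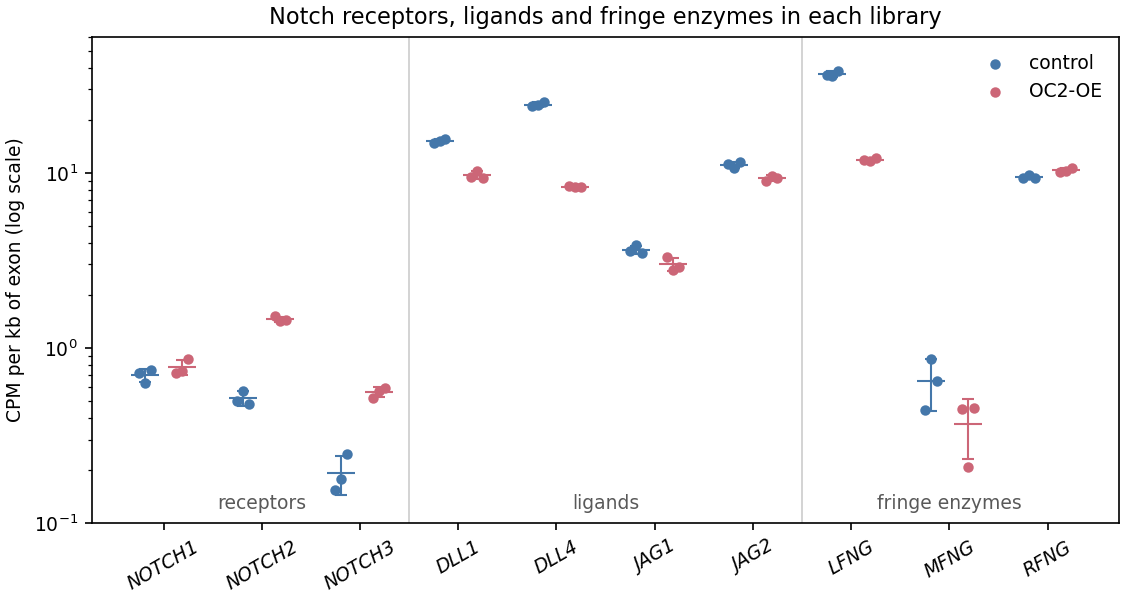
Level of each of the 10 Notch genes in each library, in CPM (counts scaled to a common library size after TMM normalization) per kilobase of exon on a log axis. Points are libraries, horizontal bars are means and error bars are SDs of 3 libraries. NOTCH2 and NOTCH3 lie higher in OC2-OE, the 4 ligands and LFNG lower, and NOTCH1 and MFNG overlap between the groups.

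To show the sequence upstream of the genes that changed most, the 250 bases before the RefSeq start (GRCh38.p14) are given for LFNG, DLL4, NOTCH2 and NOTCH3, 5′ to 3′ on the strand of the gene. RefSeq gave 9 such windows for 8 of the 10 genes, with LFNG having 2 starts, and DLL1 and MFNG not matched. Each window was searched on both strands for the ONECUT core ATCAAT, read as ATTGAT on the other strand, the RBPJ core TGGGAA, read as TTCCCA on the other strand, and the E-box CAGCTG, which reads alike on both, and capitals mark a match to any of these. The windows lie at chr7:2512279-2512528 (plus strand) and chr7:2517613-2517862 (plus strand) for LFNG, chr15:40929090-40929339 (plus strand) for DLL4, chr1:120069663-120069912 (minus strand) for NOTCH2 and chr19:15200996-15201245 (minus strand) for NOTCH3. The second LFNG window and the NOTCH2 window lie inside the span of the gene as counted, and none of the 5 holds an exon base of its own gene.
LFNG, first start: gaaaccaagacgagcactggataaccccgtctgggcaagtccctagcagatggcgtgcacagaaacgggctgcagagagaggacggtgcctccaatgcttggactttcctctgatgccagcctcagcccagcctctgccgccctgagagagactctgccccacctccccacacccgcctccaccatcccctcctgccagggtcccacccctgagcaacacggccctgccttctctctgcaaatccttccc
LFNG, second start: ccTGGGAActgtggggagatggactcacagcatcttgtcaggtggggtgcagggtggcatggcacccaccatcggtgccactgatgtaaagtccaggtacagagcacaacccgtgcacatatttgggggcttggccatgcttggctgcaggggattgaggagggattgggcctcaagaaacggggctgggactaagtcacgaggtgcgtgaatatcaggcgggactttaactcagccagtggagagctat
DLL4: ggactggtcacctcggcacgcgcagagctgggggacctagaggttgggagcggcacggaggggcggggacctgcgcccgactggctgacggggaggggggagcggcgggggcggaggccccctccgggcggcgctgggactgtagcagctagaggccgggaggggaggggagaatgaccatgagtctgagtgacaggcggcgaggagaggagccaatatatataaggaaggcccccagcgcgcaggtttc
NOTCH2: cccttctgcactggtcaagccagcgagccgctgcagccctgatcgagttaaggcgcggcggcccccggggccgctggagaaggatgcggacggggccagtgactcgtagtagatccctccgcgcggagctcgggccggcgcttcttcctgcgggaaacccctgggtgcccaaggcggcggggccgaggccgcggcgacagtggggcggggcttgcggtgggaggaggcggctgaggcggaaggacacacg
NOTCH3: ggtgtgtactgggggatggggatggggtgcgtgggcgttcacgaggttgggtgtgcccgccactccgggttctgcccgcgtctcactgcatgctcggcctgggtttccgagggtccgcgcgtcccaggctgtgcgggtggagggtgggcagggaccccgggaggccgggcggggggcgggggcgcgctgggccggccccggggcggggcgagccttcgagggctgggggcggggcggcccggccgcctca

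The RBPJ core occurred in 1 of the 9 windows of the Notch genes, at the second LFNG start, with its first base 248 bases upstream of the start, and 20.8% of 35116 RefSeq windows of this length hold it. The ONECUT core occurred in 0 of the 9 and in 5.58% of all windows, and the E-box in 0 of the 9 and in 14% of all. These are matches of letters within 250 bases, with no bearing on binding elsewhere. The windows of NOTCH3, NOTCH2 and DLL4 held 78.0%, 72.8% and 70.0% G and C, and those of LFNG 62.8% and 57.2%, against a median of 58.0% over all windows.

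The receptors are single-pass membrane proteins that serve as receptor at the surface and, once cut, as transcriptional regulator in the nucleus. NOTCH2 (ENSG00000134250.21, chr1:119911553-120100779 on GRCh38, minus strand) had 8.35, 9.56 and 7.99 CPM in the control libraries and 25.5, 23.9 and 24.2 CPM in the OC2-OE libraries. Every OC2-OE library stood far above every control library. The mean rose from 8.64 ± 0.822 in control to 24.5 ± 0.833 CPM in OC2-OE (SD, n = 3), which is 2.84-fold. The log2 fold change was 1.51 (standard error, SE, of 0.085, 95% interval 1.34 to 1.68, adjusted p = 9.61e-34, edgeR quasi-likelihood test).

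NOTCH2 has short, near-identical human copies, the NOTCH2NL genes, and reads that match more than 1 place were not counted. NOTCH2NLA had 8 counts over the control libraries and 47 over the OC2-OE libraries, NOTCH2NLB had 24 and 52, and NOTCH2NLC had 18 and 79. NOTCH2NLA and NOTCH2NLC changed, with log2 fold changes of 2.42 and 2.03, and NOTCH2NLB at 1.02 did not pass (adjusted p = 0.0143, edgeR quasi-likelihood test). The division of reads between NOTCH2 and these copies is uncertain, and with their counts added to those of NOTCH2 its log2 fold change was 1.53.

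NOTCH3 (ENSG00000074181.9, chr19:15159038-15200995, minus strand), a receptor best known from vascular smooth muscle, was the weakest of these 3 receptors in the control libraries, with 27, 28 and 38 counts. It had 94, 93 and 101 counts in OC2-OE, and the groups did not overlap. On the CPM scale it rose from 1.82 ± 0.463 to 5.27 ± 0.33 (SD, n = 3), or 2.92-fold. The log2 fold change was 1.54 (SE 0.18, adjusted p = 3.76e-13, edgeR quasi-likelihood test). The control libraries varied by 25.5% of their mean, against 18% from counting alone. Leaving out single libraries gave values between 1.39 and 1.75.

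NOTCH1 (ENSG00000148400.13, chr9:136494433-136546048, minus strand), the receptor mutated in T cell leukaemia, had 9.05, 7.95 and 9.41 CPM in the control libraries and 9.03, 9.29 and 10.9 CPM in OC2-OE. The groups overlapped. Its log2 fold change of 0.14 did not pass the test (95% interval -0.07 to 0.36, adjusted p = 0.222, edgeR quasi-likelihood test), and the interval lay below the fold changes of NOTCH2 and NOTCH3.

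The ligands are membrane proteins of the sending cell. DLL4 (ENSG00000128917.8, chr15:40929340-40939073, plus strand), a strong ligand of NOTCH1 best known from sprouting vessels, had 114, 115 and 121 CPM in the control libraries and 39.9, 39.8 and 39.5 CPM in OC2-OE. The groups were far apart, and the OC2-OE libraries were almost equal to each other. The mean fell from 117 ± 3.46 in control to 39.7 ± 0.21 CPM in OC2-OE (SD, n = 3), which is 2.94-fold lower. The log2 fold change was -1.55 (SE 0.042, adjusted p = 2.75e-64, edgeR quasi-likelihood test).

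DLL1 (ENSG00000198719.9, chr6:170282206-170306565, minus strand), a ligand used in neurogenesis and in somite formation, had 56.5, 58.2 and 59.7 CPM in the control libraries and 36.1, 39.2 and 35.7 CPM in OC2-OE. All OC2-OE libraries were lower than all control libraries. The mean was 58.1 ± 1.6 CPM in control and 37.0 ± 1.95 CPM in OC2-OE (SD, n = 3). On the log2 scale the change was -0.65 (SE 0.05, adjusted p = 1.91e-23, edgeR quasi-likelihood test). An opposite-strand gene, FAM120B, shares 370 of its exon bases, and the counting used the strand.

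The Jagged ligands had smaller changes, with intervals of -0.34 to -0.17 for JAG2 and -0.39 to -0.15 for JAG1 on the log2 scale that did not reach that of DLL1, -0.75 to -0.55. JAG2 (ENSG00000184916.9, chr14:105140982-105168824, minus strand) had 71.7, 68.3 and 73.7 CPM in the control libraries and 57.4, 61.6 and 60.1 CPM in OC2-OE, without overlap. Its log2 fold change was -0.26 (SE 0.043, adjusted p = 1.01e-07, edgeR quasi-likelihood test), which is 1.19-fold lower. A gene on the same strand, ENSG00000257622, shares 469 exon bases, 7.3% of those of JAG2, and had 0 counts in every library. There the strand does not separate the genes, and ambiguous reads were not counted.

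JAG1 (ENSG00000101384.12, chr20:10637684-10673999, minus strand), the ligand mutated in Alagille syndrome, had 33.2, 36.0 and 32.5 CPM in the control libraries and 30.7, 26.0 and 27.2 CPM in OC2-OE. The lowest control library and the highest OC2-OE library were close, and the groups did not overlap. On the log2 scale it changed by -0.27 (SE 0.061, adjusted p = 4.09e-05, edgeR quasi-likelihood test). The call was lost in some of the alternatives. Without control replicate 2, OC2-OE replicate 2 or OC2-OE replicate 3 the adjusted p from the same edgeR test was 0.00232, 0.00272 or 0.0016, and with the Wald test of DESeq2 it was 0.00147, within a range of 1.1e-05 to 0.00272 over all alternatives. The 4 ligands had a median log2 fold change of -0.46. Each of the 4 was lower, a count of few genes, against 28.7% of all tested genes that were lower.

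**Figure D2:**
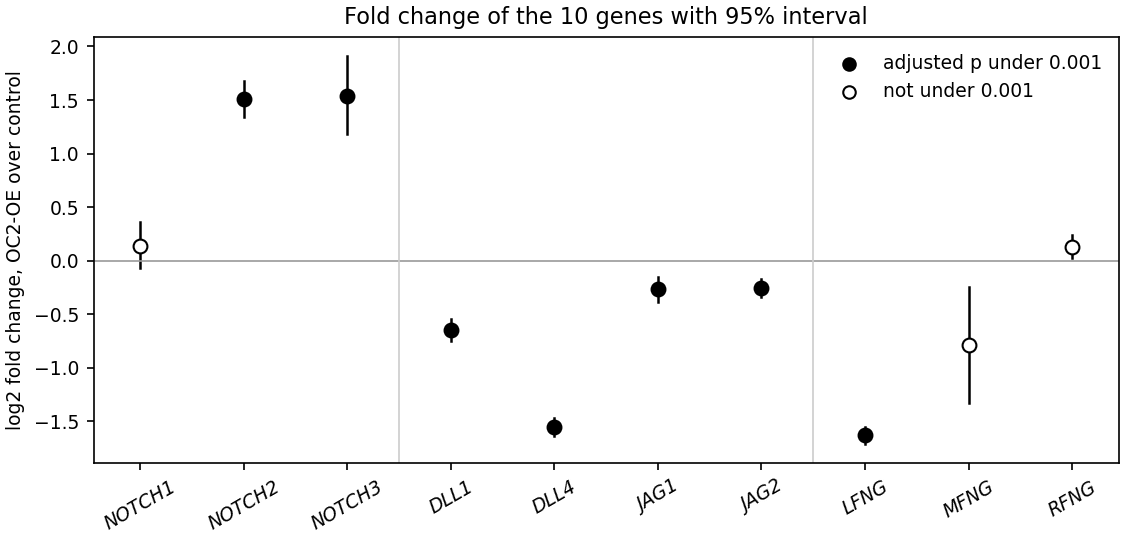
Log2 fold change of OC2-OE over control for the 10 Notch genes, with 95% intervals from edgeR's quasi-likelihood fit. Filled points had an adjusted p under 0.001. NOTCH2 and NOTCH3 lie near 1.5, DLL4 and LFNG near or under -1.55, and the interval of MFNG, from -1.33 to -0.25, is the widest.

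Of the fringe enzymes, LFNG (ENSG00000106003.14, chr7:2512529-2529177, plus strand), the family member with the oscillating expression of the segmentation clock, had the largest fold change. Its second start is the one with the RBPJ core upstream. It had 124, 123 and 132 CPM in the control libraries and 41.0, 40.1 and 41.7 CPM in OC2-OE. No library of either group came near the other group. The mean fell from 127 ± 4.9 in control to 40.9 ± 0.776 CPM in OC2-OE (SD, n = 3), which is 3.09-fold lower. The log2 fold change was -1.63 (SE 0.041, 95% interval -1.71 to -1.55, adjusted p = 4.78e-67, edgeR quasi-likelihood test). This was larger than the change of 91.8% of all tested genes. Its size relative to the changes of NOTCH3, NOTCH2 and DLL4 was not settled. Their 95% intervals on the log2 scale, 1.18 to 1.91, 1.34 to 1.68 and -1.64 to -1.47, span it in size.

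RFNG (ENSG00000169733.12, chr17:82047902-82051831, minus strand) had 36.2, 37.7 and 36.2 CPM in the control libraries and 39.1, 40.0 and 41.3 CPM in OC2-OE. The OC2-OE libraries were all slightly higher, but the log2 fold change of 0.13 did not pass the threshold (95% interval 0.02 to 0.24, adjusted p = 0.0281, edgeR quasi-likelihood test). GPS1 runs on the opposite strand and shares 835 exon bases, 21.6% of those of RFNG. GPS1 had 3678 to 4132 counts per library against 589 to 752 for RFNG.

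MFNG (ENSG00000100060.18, chr22:37469063-37486393, minus strand) had few counts, with 25, 44 and 32 counts in control and 26, 11 and 25 counts in OC2-OE. The groups overlapped, and the spread within each, 32.6% and 37.6% of the mean, was above the 17.2% and 22.0% that counting alone gives. The log2 fold change of -0.79 (SE 0.27) did not pass the threshold (adjusted p = 0.00754, edgeR quasi-likelihood test). Without control replicate 1 it was -1.02 with an adjusted p of 0.000876 in the same edgeR test, and without OC2-OE replicate 2 it was -0.52, within a range of adjusted p from 0.000876 to 0.133 over all alternatives.

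Levels of different genes were compared in CPM per kilobase of exon. In control cells the order of mean levels was LFNG (36.8), DLL4 (24.6), DLL1 (15.2), JAG2 (11.1), RFNG (9.5), JAG1 (3.64), NOTCH1 (0.702), MFNG (0.652), NOTCH2 (0.516) and NOTCH3 (0.193). Ligand and LFNG transcripts thus stood above all receptor transcripts, and of the neighbours in this order NOTCH1 and MFNG overlapped over libraries, as did MFNG and NOTCH2. In OC2-OE cells the order of mean levels was LFNG (11.9), RFNG (10.4), DLL1 (9.69), JAG2 (9.34), DLL4 (8.35), JAG1 (3.01), NOTCH2 (1.46), NOTCH1 (0.776), NOTCH3 (0.56) and MFNG (0.37). There RFNG overlapped DLL1, and DLL1 overlapped JAG2. The gap between LFNG and RFNG rests on the division by length. In CPM they overlapped in OC2-OE, with 41.0, 40.1 and 41.7 for LFNG against 39.1, 40.0 and 41.3 for RFNG. DLL4 now stood below RFNG, DLL1 and JAG2, and NOTCH2 passed NOTCH1.

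The makeup of each family was then given as the share of each gene in the family's counts per exon length. NOTCH2 made up 36.3%, 41.3% and 32.3% of receptor RNA in the control libraries and 55.1%, 52.1% and 49.8% in OC2-OE. NOTCH1 had the larger share in every control library and NOTCH2 in every OC2-OE library. In control replicate 2 this order rests on the division by length, since NOTCH2 had 160 counts there against 133 for NOTCH1. The mean share of NOTCH2 differed by 15.7 percentage points and that of NOTCH1 by -22.1, each with p = 0.1 in a two-sided exact permutation test, the smallest p that 3 against 3 libraries can give. NOTCH3 went from a mean of 13.6% to 20.0% of receptor RNA.

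Of ligand RNA, DLL4 made up 45.0 ± 0.267% in control and 27.5 ± 0.5% in OC2-OE (SD, n = 3), and JAG2 20.4 ± 0.6% and 30.7 ± 0.823%. DLL1 went the other way from DLL4, with 27.6%, 28.2% and 27.9% in the control libraries, against 31.4%, 33.1% and 31.2% in OC2-OE. Of these 4 ligands DLL4 was thus the one whose share was lower. JAG1 and JAG2 together held 27.6%, 26.9% and 26.8% of it in the control libraries, against 40.8%, 40.0% and 41.1% in OC2-OE, without overlap, a difference of 13.5 points (two-sided exact permutation p = 0.1, the smallest possible). The share of the Jagged ligands was higher while the level of each was lower, since DLL4 and DLL1 fell more. With DLL3, a Delta-like ligand that does not activate receptors on neighbouring cells, added to the pool, the difference was 7.56 points, a choice made after seeing the data.

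LFNG made up 78.7%, 77.1% and 79.3% of fringe RNA in the control libraries and 53%, 52.5% and 52.1% in OC2-OE. RFNG took up most of the remainder, with a mean of 20.3% in control and 45.9% in OC2-OE. Summed over the OC2-OE libraries, LFNG had 2239 counts and RFNG 2195. The distance between their shares in OC2-OE thus rests on the division by length. The share of LFNG differed by -25.8 points (two-sided exact permutation p = 0.1, the smallest possible), and that of MFNG by 0.236 points (p = 0.6, exact permutation test). Without division by length the share of LFNG differed by -26.8 points.

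**Figure D3:**
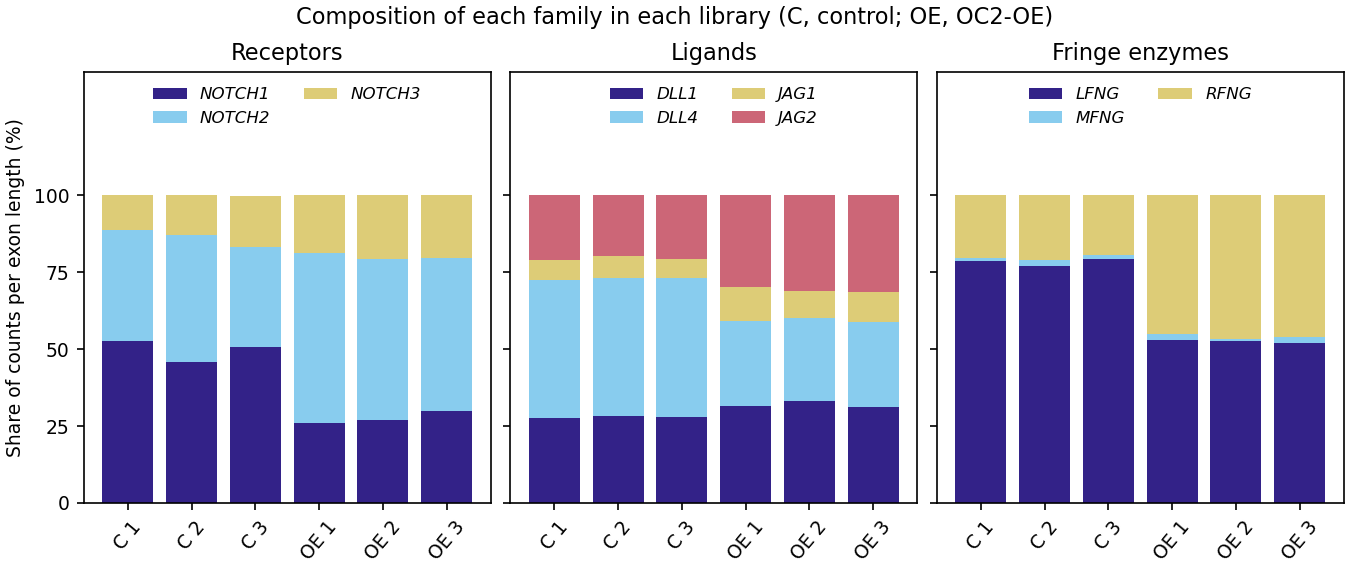
Share of each gene in the counts per exon length of its family, in percent, for each library (C, control, and OE, OC2-OE, numbered by replicate). NOTCH2 takes over from NOTCH1 as the largest receptor share, the Jagged ligands go from a mean of 27.1% to 40.6% of ligand RNA, and LFNG goes from 78.4% to 52.5% of fringe RNA.

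Summed per length, the 3 receptors had 1.41 ± 0.0568 CPM per kilobase in control and 2.8 ± 0.0881 in OC2-OE (SD, n = 3), which is 1.98-fold higher. The 4 ligands summed to 54.6 ± 1.29 and 30.4 ± 0.602 CPM per kilobase, 1.8-fold lower in OC2-OE, and the fringe enzymes to 46.9 ± 1.3 and 22.6 ± 0.532, which is 2.07-fold lower. Within the ligands, DLL1 and DLL4 together were 2.2-fold lower and JAG1 and JAG2 together 1.2-fold lower. The ratio of summed ligand to summed receptor levels was 39.0, 39.1 and 37.9 in the control libraries, against 10.9, 11.3 and 10.3 in OC2-OE. These sums and the ratio leave out DLL3 and NOTCH4. The groups did not overlap in any of the sums or in the ratio, and each had p = 0.1 in the two-sided exact permutation test, the smallest possible.

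The other genes of the pathway were described from a list of 69, of which DLK1, GXYLT2, DTX1 and HES5 had too few counts to be tested. Of the 65 tested genes, 42 (64.6%) changed, 25 higher and 17 lower, against 56.5% of all tested genes that changed, 27.8% higher and 28.7% lower. The counts by role that follow are of few genes each and stand against these same shares. The median log2 fold change of the list was 0.05. DLL3, the remaining Delta-like ligand, fell from 81.9 ± 2.72 in control to 50.9 ± 2.74 CPM in OC2-OE (SD, n = 3), or -0.69 on the log2 scale like that of DLL1 (-0.65). NOTCH4, the remaining receptor, had 65 counts over the control libraries and 47 over the OC2-OE libraries, and its log2 fold change of -0.55 did not pass the test (adjusted p = 0.115, edgeR quasi-likelihood test).

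Ligands need endocytosis, driven by ubiquitin ligases of the Mind bomb and Neuralized families, to pull on the receptor. Of 7 genes with this role 5 (71.4%) changed, 3 higher and 2 lower, against 56.5% of all genes. NEURL1B fell from 235 ± 1.45 in control to 43.6 ± 1.8 CPM in OC2-OE (SD, n = 3). Its log2 fold change came to -2.43 (SE 0.036), and NEURL1 from 193 ± 4.94 to 97.4 ± 4.76 CPM, a log2 fold change of -0.99. MIB2 rose by 0.66 on the log2 scale, and MIB1, the Mind bomb ligase with the main part in ligand endocytosis, had a log2 fold change of -0.07 and did not pass (adjusted p = 0.0994, edgeR quasi-likelihood test). Among the noncanonical ligands, 2 rose and 2 fell of 5 tested. DLK2 had 22 counts over the control libraries and 178 over the OC2-OE libraries (log2 fold change 2.91), while DNER and EGFL7 had log2 fold changes of -0.34 and 0.33.

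Receptors are cut by FURIN on their way to the surface, by ADAM proteases upon ligand binding and then by gamma-secretase. Of 9 genes for cleavage 6 rose, against 27.8% of all genes, and 1 fell. FURIN fell from 441 ± 9.59 in control to 229 ± 1.68 CPM in OC2-OE (SD, n = 3), or -0.95. on the log2 scale ADAM17 rose by 0.69 and APH1B, a gamma-secretase subunit, by 1.04 on the log2 scale.

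The O-glycosylation genes place the sugars that fringe enzymes extend or that stand beside them on the receptor. Of 7 tested 3 rose and 1 fell, all by less than 1 on the log2 scale. POGLUT1 and POGLUT3, O-glucosyltransferases, rose by 0.46 and 0.43, and POGLUT2 had a log2 fold change of -0.64. Genes for receptor trafficking and degradation had 7 of 10 tested higher, against 27.8% of all genes, and 1 lower, with a median log2 fold change of 0.48. NEDD4, a ubiquitin ligase, rose from 21.6 ± 1.38 in control to 58.0 ± 1.25 CPM in OC2-OE (SD, n = 3), or 1.43 on the log2 scale, and the Deltex genes DTX4 and DTX3 had log2 fold changes of 1.04 and 1.00. FBXW7, the ligase that marks the intracellular fragment for degradation, is named outside the rule as the gene that fell in this role, by 0.66 on the log2 scale.

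In the nuclear complex, 2 of 7 genes rose and 3 fell. MAML2, a coactivator, had 7 counts over the control libraries and 61 over the OC2-OE libraries (log2 fold change 2.98), whereas MAML3 fell by 0.69 and KAT2B, an acetyltransferase, rose by 0.46. Of 12 corepressor genes, which hold RBPJ targets silent, 0 rose and 4 (33.3%) fell, a share near the 28.7% of all genes. TLE3 fell from 154 ± 3.41 in control to 82.4 ± 3.26 CPM in OC2-OE (SD, n = 3), or -0.90 on the log2 scale, and NCOR1 and HDAC1 had log2 fold changes of -0.22 and -0.21. Of 6 target genes tested, 2 fell and 2 rose. The largest changes were those of HES1 and HEY2, with log2 fold changes of -1.68 and -1.50, and of HEYL, with 1.35.

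**Figure D4:**
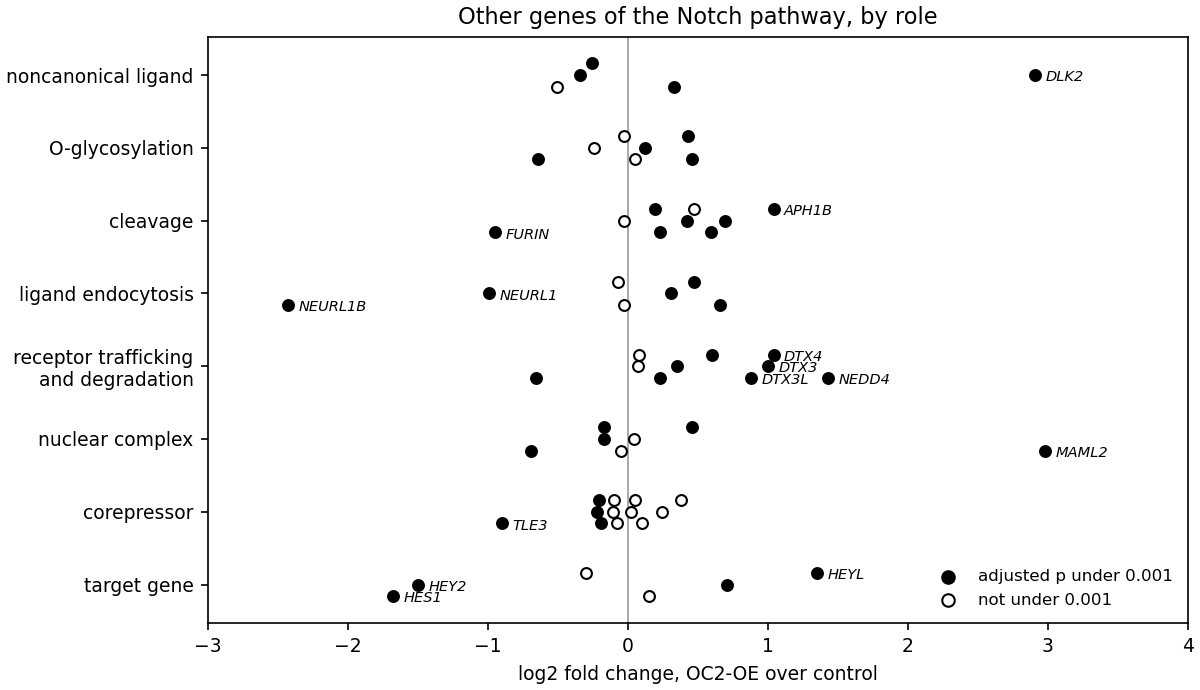
Log2 fold change of OC2-OE over control for the tested genes of the pathway list in the 8 roles shown, 1 point per gene, filled where the adjusted p was under 0.001. Cleavage and trafficking genes lie mostly right of 0, of 12 corepressors the 4 filled points lie left of 0, with TLE3 at -0.90, and NEURL1B, at -2.43, has the lowest value.

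Markers of several cell types were measured beside these genes. Of 7 neuroendocrine markers, CHGA rose and 6 fell, a count of few genes, against 27.8% of all tested genes higher and 28.7% lower. The summed level of the 7 was 4907 to 4956 CPM in the control libraries and 3233 to 3295 CPM in OC2-OE. Most of this sum was CALCA, with means of 3774 CPM in control and 2630 CPM in OC2-OE. The log2 fold changes of the 6 that fell ranged from -4.41 for GRP to -0.14 for CHGB, and that of CHGA was 1.06. Of 4 endothelial markers, which would accompany DLL4 in vessel cells, TEK and VWF had too few counts to be tested, with 2 and 1 counts over the control libraries and 0 and 17 over the OC2-OE libraries, CDH5 fell from 52 to 3 counts summed over the libraries, PECAM1 had a log2 fold change of 0.02 (adjusted p = 0.927, edgeR quasi-likelihood test), and the sum was 3.05 to 4.01 CPM in control and 2.36 to 3.35 CPM in OC2-OE. The 4 fibroblast markers summed to 20.9 to 23.8 CPM in control and 28.1 to 32.0 CPM in OC2-OE, with COL1A1 and PDGFRB higher. The 4 leukocyte markers summed to 0.419 to 0.535 and 2.02 to 2.68 CPM, with LYZ higher and CD3E at 0 in every library. Most of the leukocyte sum was LYZ, with means of 0.401 CPM in control and 2.22 CPM in OC2-OE. PTPRC, CD3E and CD79A had too few counts to be tested. The part of these markers' cell states or cell types in the changes of the Notch genes was not tested.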

How the data were processed

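RNA-Seq counts of 3 control and 3 OC2-OE libraries were used. The authors made stranded poly(A) libraries, aligned reads to GRCh38 with STAR 2.7.9a per the labels, and deposited raw counts of read pairs per gene (GENCODE release 42), summed over exons by featureCounts 1.6.0 with the strand and without multi-mapping or ambiguous reads. Of 62696 genes, 62672 were given a symbol through their Ensembl identifier. Counts were normalized with TMM and tested with edgeR 4.0.16 in R 4.3.3 (filterByExpr, robust quasi-likelihood test without a replicate term, Benjamini-Hochberg adjustment over 17307 genes, threshold 0.001). CPM is on the TMM scale. The number of counts, 16533284 to 19099337 per library, limits genes with few counts. Shares and sums were compared by exact permutation tests (scipy 1.17.1). The steps were tested on simulated data. The members and lists were chosen with earlier results of these data known. Named genes were all 10 members, up to 3 genes per role of the pathway list that changed most, up or down, and passed 0.001 without overlap, and the 3 genes nearest to the member with the largest rise and to that with the largest fall. NOTCH4, MIB1, FBXW7, the NOTCH2NL genes, genes overlapping a member and cell type markers were named outside this rule. Alternatives were DESeq2 1.42.0, limma voom (limma 3.58.1), other normalizations, filters and thresholds, a replicate block, each library left out, counts not divided by length, and NOTCH2NL counts added to NOTCH2. Counting NOTCH4 among the receptors and DLL3 among the ligands was added after seeing the data. The values of 1 gene of the pathway list are not reported here.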

Additional observations from a re-analysis of the deposited data

How the results depend on the processing

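Of 151 fold changes of the 10 genes under the alternatives other than thresholds, 146 kept direction and side of the threshold and 0 changed direction. The other 5 concern JAG1 (4) and MFNG (1), and the cause was not tested. Adding a minimum change of 1 on the log2 scale left 2999 of all genes, 4 of the 10 Notch genes (2 lower), and 10 of the pathway list (7 higher, 3 lower). An adjusted p under 0.05 gave 12354 of all genes, 9 of the 10 Notch genes (3 higher, 6 lower), with RFNG and MFNG added, and 51 of the pathway list. The Jagged share differed by 15.8 points without division by length and by 7.56 with DLL3 added. Leaving out single libraries gave 6 to 8 of the 10 genes and 8944 to 9340 of all genes. Library size alone or upper-quartile scaling moved the median of all genes to 0.06 or 0.05. With the replicate number as a block, the same number of Notch genes, 7, and 41 pathway genes changed, with 9642 over all genes. Same-numbered libraries did not deviate together (r of -0.00297, 0.0296 and 0.0213 across 10630 genes, which are not independent replicates), so the numbers were not taken to pair the samples.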

Other observations

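Genes whose pattern over the 6 libraries was nearest to the members with the largest rise and the largest fall were sought by Euclidean distance of log2 CPM, which weighs level as well as change. NOTCH3 had the largest rise by a small margin over NOTCH2, 1.54 against 1.51 on the log2 scale, and the order was the other way without control replicate 1 (1.39 against 1.48), without control replicate 2 (1.49 against 1.58) or without OC2-OE replicate 3 (1.51 against 1.52). Nearest to LFNG were NRP1, a receptor for semaphorins and VEGF, at a distance of 0.134, CUEDC1 at 0.15 and the long noncoding RNA DRAIC at 0.207. NRP1 had a mean of 130.0 CPM in control and 40.1 CPM in OC2-OE, against 127 and 40.9 CPM for LFNG. Nearest to NOTCH3 were SLC9A3, a sodium/proton exchanger, at 0.325, ENSG00000229848 at 0.349 and ENSG00000291176 at 0.422. SLC9A3 had a mean of 2.05 CPM in control and 5.36 CPM in OC2-OE. Each of these was chosen for its likeness, so the distances are a description.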
